A study of Mus musculus with 12 samples.

Results

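The H3K4me2 landscape of control mouse liver was described from the peaks that the authors kept after joining 2 ChIP-seq libraries. Every entry of the control H3K4me2 list was used, 43891 of the 109150 entries in the 3 peak lists of the series. The control mice (C57BL/6, labelled GFP control) carried floxed alleles of Kdm1a, the gene for the histone demethylase LSD1, and received an AAV8 vector that expressed GFP from the hepatocyte-specific TBG promoter in place of Cre, so that LSD1 was left in place. The study's methods describe injection in young adulthood and then several weeks of a high-fat diet before tissues were taken, without saying whether the livers taken for these libraries followed the same schedule. Whole liver was used, with 2 H3K4me2 ChIP libraries and 2 control libraries. The labels call the control libraries input with no antibody, whereas the study's methods name IgG ChIP, and neither says that the libraries came from separate animals, although the peak names carry a different mouse label in each. Each entry holds a peak of 1 library and its overlapping partner in the other, and the list does not say which is replicate 1, so they are called the first-listed and the second-listed library.

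Dimethylation of lysine 4 of histone H3 (H3K4me2) is laid down by the MLL and SET1 methyltransferases and removed by LSD1 and other demethylases. It flanks the transcription start sites (TSSs) of active and poised genes, and it also marks enhancers, often within introns. CpG islands, stretches of DNA rich in unmethylated CpG, recruit the methyltransferases through CXXC-domain proteins, and promoters of liver-specific genes such as albumin mostly lack such islands. Hepatocytes make up most of the liver's mass, with endothelial, macrophage (Kupffer), stellate and bile duct cells between them.

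The promoters below are single examples and not typical of the marked ones, since 94.2% of high-CpG promoters (defined further below) had a peak. Each is the 250 bases before the TSS, 5′ to 3′ on the gene's strand, from the GRCm38 (mm10) RefSeq assembly, with every CpG in capitals. Albumin (chr5:90460647-90460896, plus strand) and the olfactory receptor Olfr1 (chr11:73399615-73399864, minus strand) had no promoter peak and few or no CpGs. Apolipoprotein A-I (Apoa1, chr9:46228330-46228579, plus strand), chosen after its values were seen, was marked with 3 CpGs. Kdm1a (chr4:136602724-136602973, minus strand) had 21 CpGs and no peak in the joined list.
Alb: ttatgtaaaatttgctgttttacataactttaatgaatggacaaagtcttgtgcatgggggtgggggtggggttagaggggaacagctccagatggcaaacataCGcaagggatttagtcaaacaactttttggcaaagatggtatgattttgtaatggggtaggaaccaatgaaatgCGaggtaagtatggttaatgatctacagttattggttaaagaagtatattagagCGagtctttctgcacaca
Olfr1: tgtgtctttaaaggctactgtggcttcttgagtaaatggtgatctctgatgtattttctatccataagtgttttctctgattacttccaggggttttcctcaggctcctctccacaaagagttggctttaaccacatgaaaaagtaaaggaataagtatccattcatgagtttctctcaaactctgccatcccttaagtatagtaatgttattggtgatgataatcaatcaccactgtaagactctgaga
Apoa1: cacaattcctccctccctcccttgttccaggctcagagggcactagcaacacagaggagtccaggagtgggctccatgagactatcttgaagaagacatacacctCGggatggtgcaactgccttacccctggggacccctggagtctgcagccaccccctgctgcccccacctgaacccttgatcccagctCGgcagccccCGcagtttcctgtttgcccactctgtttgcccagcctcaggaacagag
Kdm1a: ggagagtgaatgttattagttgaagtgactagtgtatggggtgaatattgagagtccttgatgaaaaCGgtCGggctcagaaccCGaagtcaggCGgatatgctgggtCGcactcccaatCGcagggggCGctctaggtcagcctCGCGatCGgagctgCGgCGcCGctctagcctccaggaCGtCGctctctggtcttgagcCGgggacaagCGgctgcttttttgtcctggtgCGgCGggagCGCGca

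Of the 12 motifs searched, the Alb sequence held the HNF1 motif (GTTAATNAT) at position -59 from the TSS and Kdm1a the CTCF motif (AGGGGGCGC) at -127. Apoa1 and Alb, with 3 CpGs each, had opposite calls. The central 200 bases of a pair of peaks are shown in the same way, on the plus strand. The distal peak with the highest mean −log10 p of both libraries lay at chr11:3125189-3126095, and its centre (chr11:3125542-3125741) had 4 CpGs and a GC box (GGGCGG). The highest-ranking intragenic peak in a gene of the hepatocyte lists lay at chr1:88212024-88214960 in Ugt1a1, the bilirubin glucuronosyltransferase gene, and its centre (chr1:88213392-88213591) had 1 CpG.
Distal peak: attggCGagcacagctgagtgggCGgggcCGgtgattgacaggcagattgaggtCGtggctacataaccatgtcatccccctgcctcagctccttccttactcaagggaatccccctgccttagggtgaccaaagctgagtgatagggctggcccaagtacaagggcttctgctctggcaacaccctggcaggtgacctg
Ugt1a1 peak: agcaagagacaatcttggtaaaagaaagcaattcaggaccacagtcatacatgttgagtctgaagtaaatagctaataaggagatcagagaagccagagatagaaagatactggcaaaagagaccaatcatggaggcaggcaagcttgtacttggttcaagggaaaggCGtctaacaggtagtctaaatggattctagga

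The distal peak had a fold enrichment over the control library of 5.32 in the first-listed and 7.18 in the second-listed library, and the Ugt1a1 peak had 5.05 and 5.35. The −log10 p of the distal peak was 41.7 and 74.1. Peaks of the same fold enrichment (within 5%) had medians of 8.61 and 14.3.

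In the joined list the second-listed peaks were wider and higher than the first-listed ones. Only overlapping peaks were kept when the list was joined, so the bases the libraries share in it do not measure how far all their peaks coincided. The first-listed peaks covered 38.9 Mb (1.47% of the 2648 Mb of sequenced genome) and their partners 50.8 Mb (1.92%). The shared 34.8 Mb made up 89.5% of the first-listed and 68.6% of the second-listed bases. Peak numbers in the list ran to 97180 and 100431, so that 45.2% of the first-listed and 35.0% of the second-listed numbers were kept. The partner was wider in 83.3% of pairs (median ratio 1.73) and had the higher fold enrichment in 77.7% (median ratio 1.34). The list required at least 50% of each first-listed peak to be overlapped, and 21941 peaks (49.99%) lay wholly inside their partner. At least 50% of the partner was covered in only 52.0% of pairs. Such a rule admits wide partners more readily, so the width ratio need not hold for all peaks of both libraries. The 43891 entries held 35149 distinct second-listed peaks, 6874 of which partnered several first-listed peaks, up to 10 for 1 partner.

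Peak heights agreed less well than positions, which the joining itself required to overlap. Spearman's rho of fold enrichment between the libraries was 0.47 over the 43891 pairs, and 0.55 over the 28275 pairs in which each peak had 1 partner. It was 0.30 within the promoter, 0.33 within the intragenic and 0.34 within the distal class, and 0.19 among the 16177 pairs with p at or below 1e-05 in both libraries. Peaks of 1 sample share library, depth and base composition, so these values carry no p. Summits lay 230 bp apart at the median, 26.9% within 100 bp and 12% more than 1 kb apart. Per gene, rho was 0.32 for the highest fold enrichment of a promoter peak over 11780 genes, and 0.91 for marked bases over 13949 genes, a count that rests on intervals chosen to overlap. The listed p exceeded 0.01 in 4.62% of first-listed and 1.80% of second-listed peaks, and q exceeded 0.05 in 39.2% and 12.2%.

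**Figure D1:**
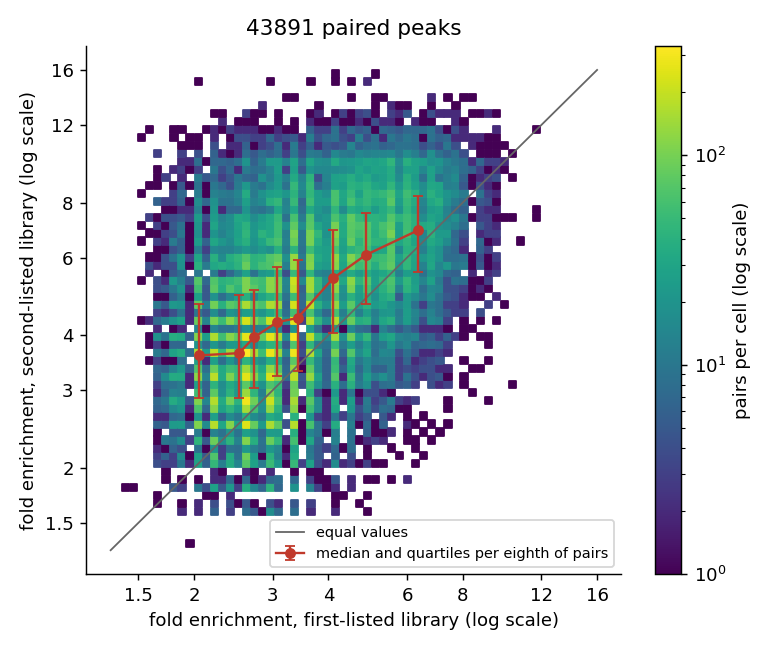
Fold enrichment of each of the 43891 paired peaks in the first-listed (x) against the second-listed library (y), both on log scales, with colour for the number of pairs per cell. Red points are medians with quartiles for each eighth of the pairs by first-listed value, and 77.7% of pairs lie above the grey line of equal values.

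Promoters held far more of the peaks than of the genome. By the position of the peak centre, 15848 peaks (36.1%, 95% Wilson interval 35.7 to 36.6, counting error only) were promoter peaks, within 1 kb of a TSS of a protein-coding gene, in a class that made up 2.44% of the genome. A further 17937 (40.9%) were intragenic, in 37.4% of the genome, and 10106 (23.0%) were distal, in 60.1%. This amounted to 246 promoter, 18.1 intragenic and 6.35 distal peaks per Mb of the class. Promoter peaks were wider, with a median of 1033 bp against 521 and 518 bp, and took up 48.4% of the covered bases. Their median fold enrichment was 4.36 in the first-listed and 6.26 in the second-listed library, against 2.98 and 3.70 for intragenic and 2.98 and 3.84 for distal peaks. In the sequence of the peaks, the median was 43.6 CpGs per kb in promoter, 11.1 in intragenic and 13 in distal peaks.

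Promoter peaks made up most of the highest decile of peaks by mean −log10 p. In the lowest decile 6.98% were promoter peaks, and in the highest decile 80.1% were. The highest decile held 3517 promoter, 561 intragenic and 312 distal peaks. Of those 312 distal peaks, 95 (30.4%) had a TSS of a gene of another type, such as a non-coding RNA, 1 kb away or less. The 10 highest-ranking peaks of all were distal. Their −log10 p was 2.98 to 5.59 times the median of peaks of the same fold enrichment in the first-listed library. In the second-listed library it was 3.32 to 7.33 times. Their high rank thus did not rest on fold enrichment alone.

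**Figure D2:**
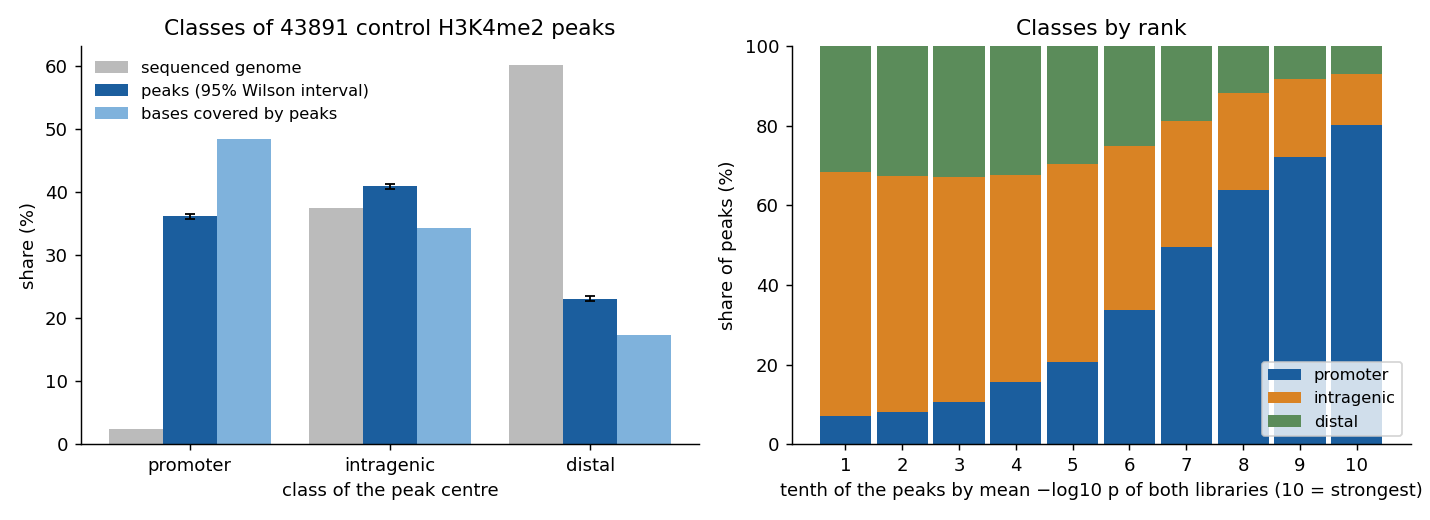
Left, share (%) of the sequenced genome (grey), of the 43891 peaks (dark blue, with 95% Wilson intervals) and of the bases under peaks (light blue) in the promoter, intragenic and distal classes. Right, share (%) of each class in deciles of the peaks ranked by mean −log10 p, in which the promoter share runs from 6.98% to 80.1%.

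Intragenic peaks lay in first introns more often than the length of first introns would give. The first intron of the principal transcript held 7745 of them (43.2%) and makes up 21.2% of the intragenic genome, while exons held 1950 (10.9%) and make up 8.06%. Counting all peaks, promoter peaks included, 12.1% of the bases of the 5′-most decile of gene length were covered in the 14090 genes of at least 10 kb, 2.54% of the next decile and 0.835% of the last. The median intragenic peak lay 8.70 kb from a TSS. The median distal peak lay 25.4 kb away, with 1722 peaks more than 100 kb and 161 more than 500 kb from any TSS of a protein-coding gene. Within 1 kb of the TSS of another gene type lay 1159 distal peaks (11.5%, against 2.70% of the distal genome), 534 of them at long intergenic non-coding RNAs.

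Coverage around the TSS was higher downstream than upstream. In the first-listed library 38.6% of the 21853 principal TSSs were covered, against 38.8% of positions 300 bp upstream and 48.7% of positions 250 bp downstream. In the second-listed library coverage was 48.2% at the TSS and 52.9% at 250 bp downstream. Among genes with a high-CpG promoter the first-listed library dipped between 2 shoulders, with coverage of 72.3% at 350 bp upstream, 64.9% at the TSS and 85.5% at 300 bp downstream. The second-listed library had 80.9%, 81.4% and 91.2% at the same positions. At low-CpG promoters coverage peaked at 11.6% in the first-listed and 13.7% in the second-listed library. In 2294 genes (10.5%) the TSS itself was free of peak bases while both flanks within 1 kb were marked.

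**Figure D3:**
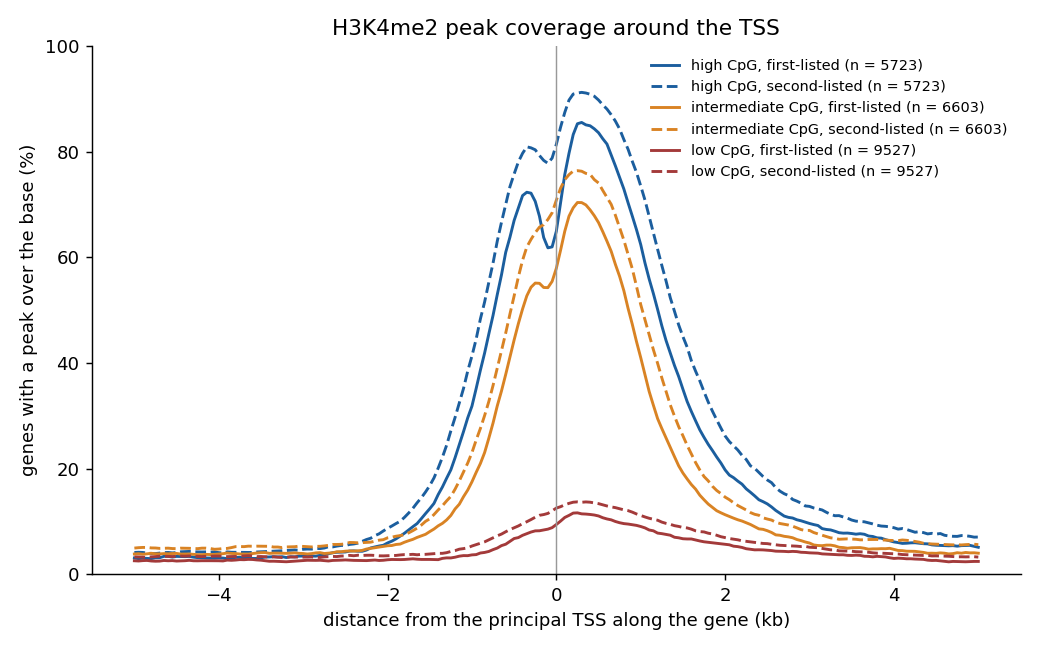
Share of genes (%) with a peak over each position from 5 kb before to 5 kb after the principal TSS, by CpG class of the promoter (colour) and library (solid, first-listed; dashed, second-listed). The high-CpG curves rise to 85.5% and 91.2% at 300 bp downstream, and the low-CpG curves reach 11.6% and 13.7%.

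CpG content of the promoter sorted marked from unmarked genes. Of 21853 protein-coding genes, 12857 (58.8%, Wilson interval 58.2 to 59.5) had a peak within 1 kb of a TSS. This was the case for 5391 of 5723 genes (94.2%) of the high class, with an observed to expected CpG ratio of at least 0.75 and GC of at least 55% in the 1000 bp around the principal TSS. It held for 5379 of 6603 intermediate genes (81.5%) and 2087 of 9527 genes (21.9%) with a ratio below 0.48. By deciles of the CpG ratio the share ran from 7.73% to 96.0%. Genes whose 5′ ends lay within 1 kb of a divergent partner were marked in 1382 of 1481 cases (93.3%), and other genes in 11475 of 20372 (56.3%). Within the high class the counts were 708 of 723 (97.9%) and 4683 of 5000 (93.7%).

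The genes of the hepatocyte lists were mostly marked in every CpG class. Of their low-CpG promoters 51 of 57 (89.5%) had a peak, against 21.9% of all low-CpG promoters, and of their high-CpG promoters 10 of 11. Among secreted plasma proteins 23 of 25 were marked, the exceptions being Alb and F9 (coagulation factor IX, on chromosome X), against 58.8% of all genes. Of the hepatocyte transcription factors 18 of 21 were marked, without Cebpb, Creb3l3 and Foxa3. Of the metabolic enzymes and transporters 27 of 30 were, without Cps1 (the first urea cycle enzyme), Cyp8b1 (the bile acid 12α-hydroxylase) and Pck1 (gluconeogenesis). Each of these except F9 had a peak elsewhere in the gene or within 1 kb of it. With p at or below 1e-05 in both libraries the secreted, factor and metabolic lists were marked in 72%, 85.7% and 60% of cases. The share of all genes was then 47.4%. Of the zonated genes 8 of 10 periportal and 9 of 10 pericentral ones were marked, the latter without the glutamate transporter Slc1a2, though with p at or below 1e-05 in both libraries 20% of the periportal and 50% of the pericentral genes were, against 47.4% of all genes.

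Marking of the first 3 of these lists also extended over more bases. The median was 3962 marked bases for secreted proteins, 6582 for the transcription factors and 4215 for the metabolic genes, against 1121 for all genes and 1907 for genes with a peak, counted in the gene and 1 kb either side. The medians of the periportal and pericentral lists were 2125 and 2075 bases. Housekeeping genes (20 of 20) and clock genes (19 of 19) all had a promoter peak, against 58.8% of all genes. Of these lists 55% and 63.2% had high-CpG promoters, which were marked in 94.2% of all cases. Their medians were 3094 and 4162 marked bases.

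Genes of the macrophage, endothelial and stellate lists were mostly without promoter peaks. None of 14 macrophage genes had one, and Adgre1, Clec4f, Csf1r, Cd68 and Vsig4 had no peak at all. Of 14 endothelial genes 3 were marked (Bmp2, Fcgr2b and Flt1), although 10 had a peak somewhere in the gene. Of 14 stellate genes 3 were marked (Lhx2, Pdgfra and Reln) and of 10 bile duct genes 5 were, all against 58.8%. The Wilson interval of the bile duct share, 23.7 to 76.3%, included 58.8%. With p at or below 1e-05 in both libraries 0% of the endothelial and 21.4% of the stellate genes were marked. Low-CpG promoters, 21.9% of which were marked among all genes, belonged to 100% of the macrophage, 78.6% of the endothelial, 57.1% of the stellate and 60% of the bile duct genes, and the 21.4% of endothelial and stellate genes marked lay near that share. In whole liver, fewer cells of a type and less of the mark per cell cannot be told apart. The hepatocyte markers of the labelled tissue were present: all 8 had a peak and 6 had it at the promoter.

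Genes of other tissues had promoter peaks in 1 of 14 cases for lymphocytes (Ikzf1), 1 of 14 for neurons (Slc17a7), 2 of 14 for muscle (Actn3 and Myh4) and 1 of 14 for germ cells (Dazl), against 58.8% of all genes. Of these lists 92.9%, 28.6%, 92.9% and 71.4%, in the same order, had low-CpG promoters, which were marked in 21.9% of all cases. Developmental transcription factors were marked in 19 of 43 cases (44.2%) and in 10 of 18 of those of high CpG class, but with p at or below 1e-05 in both libraries 9.30% were, against 47.4% of all genes. Marked members included Pax6, Isl1 and Sox17, and unmarked ones Sox1, Sox2, Myod1 and Nkx2-1. Hox genes, which set position along the body axis, were marked in 13 of 39 cases, and in 0% with p at or below 1e-05 in both libraries.

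Large receptor and epithelial families were unmarked. A promoter peak was found at 4 of 1134 olfactory receptor genes, 1 of 209 type 1 and 0 of 120 type 2 vomeronasal receptors, 0 of 57 keratin-associated proteins, 0 of 35 bitter taste receptors, 0 of 22 alpha-defensins, 0 of 42 beta-defensins and 0 of 14 type I interferons. The share over all genes was 58.8%. In these families 99.5% to 100% of promoters were of the low-CpG class, which was marked in 21.9% of all cases. Reads from near-identical gene copies may not be assigned to 1 of them, so the calls for these families, and for the major urinary proteins (18 of 22, or 31.8% with p at or below 1e-05 in both libraries), histones and other multi-copy genes, are uncertain. At the other end stood RNA polymerase II (13 of 13), complex I of the respiratory chain (46 of 46) and mitochondrial ribosomal proteins (76 of 78). Low-CpG promoters belonged to 7.69%, 2.17% and 0% of these, in the same order. Of all high-CpG and intermediate promoters 94.2% and 81.5% were marked. Cytochrome P450 genes were marked in 52 of 98 cases (53.1%) and solute carriers in 245 of 371 (66.0%), both near the 58.8% of all genes. Serpins were marked in 23 of 61 (37.7%). Low-CpG promoters belonged to 87.8% of the cytochrome P450 genes, 39.6% of the solute carriers and 95.1% of the serpins. The P450 and serpin shares both lay above the 21.9% of all low-CpG promoters.

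**Figure D4:**
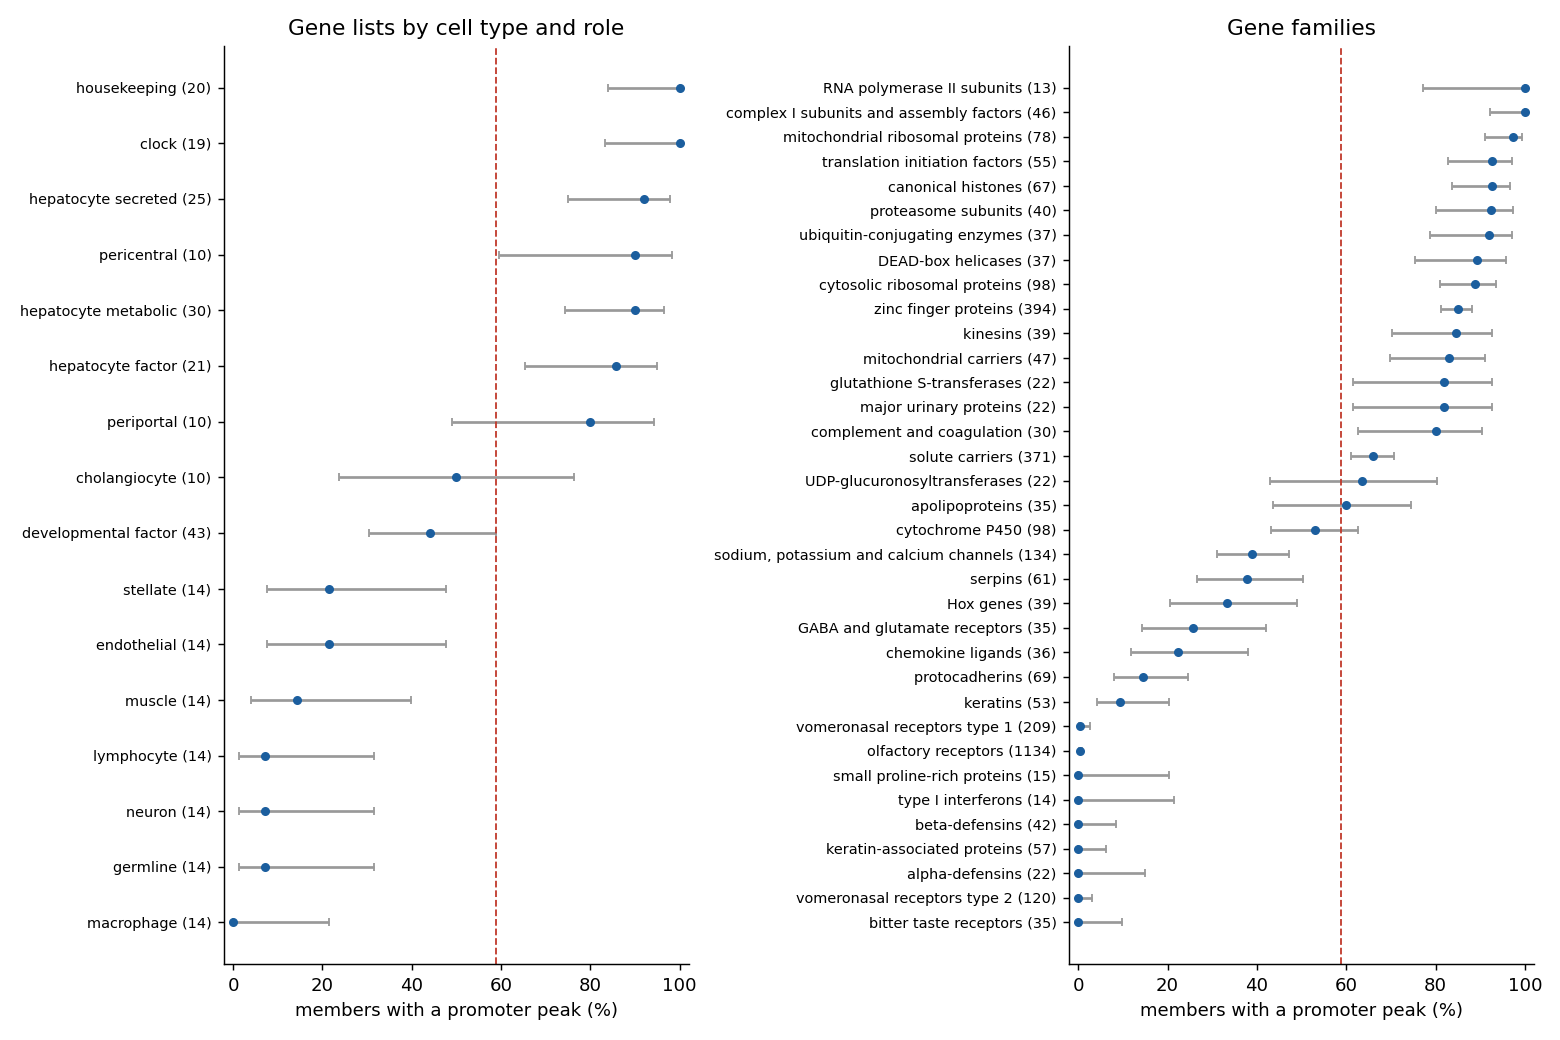
Share (%) of the members of each gene list (left) and family (right) with a promoter peak, with 95% Wilson intervals and the number of members in parentheses. The dashed line is the 58.8% of all protein-coding genes, and housekeeping, clock and hepatocyte lists lie to its right while macrophage, lymphocyte, neuron, muscle and germline lists lie to its left.

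Of the 8996 genes without a promoter peak, 7440 (82.7%) had a low-CpG promoter and 332 a high-CpG one. Families with under 5% of promoters marked accounted for 1643 (18.3%) and predicted genes (Gm and Rik symbols) for 1557. A peak elsewhere in the gene was present in 1097. Kdm1a was among the 332, with no listed peak in the gene or within 1 kb. The list holds only peaks that overlapped in both libraries. A gene without a listed peak may still have had one in 1 library. The 7899 genes with no peak at all lay a median of 67.3 kb from the nearest one.

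Peaks were unevenly spread over chromosomes. Autosomes had 13.3 (chromosome 1) to 28.5 (chromosome 19) peaks per Mb, chromosome X 4.0, and chromosome Y 6 peaks in all. On X 318 of 948 genes (33.5%) had a promoter peak, against 48.2% to 72.3% on single autosomes. The share on X was lower in each CpG class: 79 of 95 against 5312 of 5628 autosomal genes in the high, 174 of 287 against 5204 of 6309 in the intermediate, and 65 of 566 against 2022 of 8785 in the low class. Among 2737 windows of 1 Mb, 555 held no peak, and the densest, chr10:80000001-81000000, held 133 peaks and the starts of 53 genes. A stretch of 4.13 Mb at chr7:19953379-24081211 held 105 gene starts, 65 of vomeronasal receptors, and no marked gene.

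Most genes carried few peaks. Exactly 1 peak was found in 5312 genes, at least 5 in 1965, at least 10 in 471 and at least 20 in 74. The largest totals belonged to Gm20388, a predicted gene annotated over 4435 kb with 239 peaks and 202356 marked bases, and Fgfr2 (a fibroblast growth factor receptor, annotated over 2961 kb) with 70 peaks and 57958 bases. Both annotations span other genes, with 72 and 29 protein-coding gene starts inside, 58 and 19 of them marked. Next came Nfib (a nuclear factor I transcription factor) with 32478, Rbm47 (an RNA-binding protein) with 32465, Mtss1 with 31501, Shb (a signalling adaptor) with 30644, Adk (adenosine kinase) with 30327, Zbtb20 (a repressor of alpha-fetoprotein) with 29810, Gse1 with 29298 and Rxra (the partner of many hepatic nuclear receptors) with 29181. These 8 had no other protein-coding gene start inside, but Gse1 itself lies within the Gm20388 annotation, so its bases were counted for both. By the second-listed intervals 9 of the 10 genes were again in the top 10. By number of peaks Nfia (39), Tns1 (35) and Foxn3 (34) joined the top 10.

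Relative to their length, compact genes led. Among genes of at least 5 kb, peaks covered 89.8% of Irf2bp2 and its flanks, 86.6% of Foxa1 (a hepatic pioneer factor), 83.1% of Hhex (a homeobox factor of liver development), 82.6% of Srsf5 (a splicing factor), 80.8% of Tuba4a, 78% of Hspa5 (the chaperone BiP), 77.5% of Nat8f1, 77.3% of Msrb1, 76.5% of Abhd14b and 74.5% of Klf15 (a metabolic regulator). For Srsf5 this was 5785 bases by the first-listed and 3708 by the second-listed intervals.

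**Figure D5:**
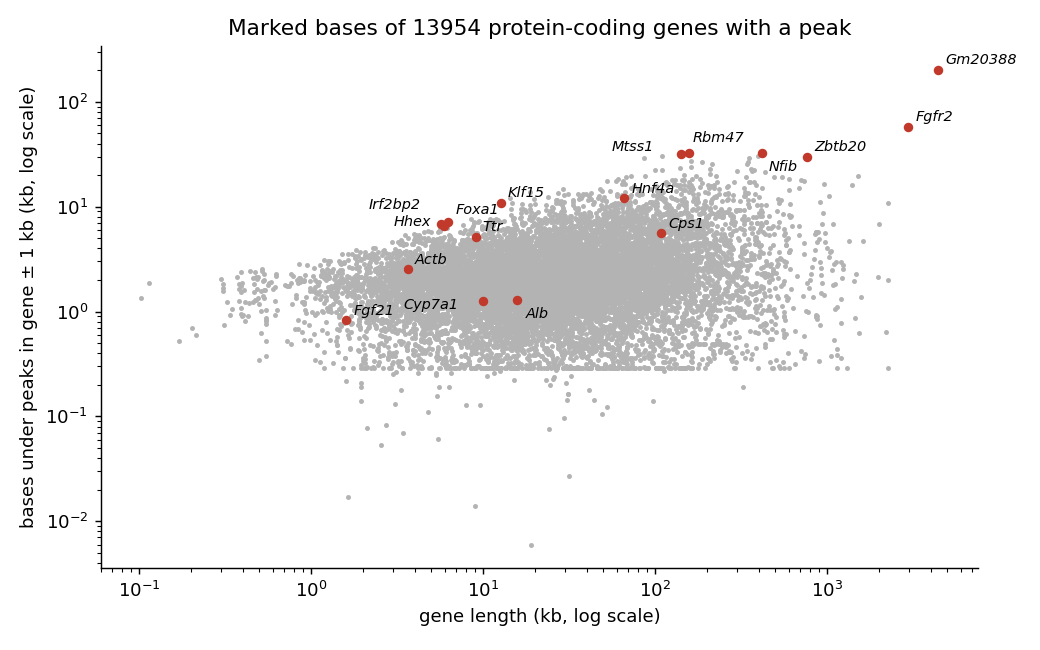
Bases under first-listed peaks in the gene and 1 kb either side (kb, log scale) against gene length (kb, log scale) for the 13954 protein-coding genes with a peak. Named genes are in red: Gm20388 and Fgfr2 stand at the upper right, Foxa1, Hhex and Irf2bp2 on the upper edge at short lengths, and Alb, with 1293 bases, within the cloud.

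Individual liver genes differed in layout. Alb, the major plasma protein, had 2 peaks in its 15.7 kb, and the nearest to its TSS (chr5:90462503-90463144, over an exon) had fold enrichments of 2.05 in the first-listed and 3.54 in the second-listed library. Both Alb peaks shared 1 partner of 1935 bp. Cps1 had its widest peak in the first intron (chr1:67124679-67128736), with fold enrichments of 5.09 and 6.12, and its partner of 7021 bp reached across the TSS. Its lack of a promoter peak thus rests on the first-listed interval. Ttr (transthyretin) had 6 peaks and 5177 marked bases (46.9% of the gene and flanks).

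Hnf4a, a master regulator of hepatocyte identity, had 14 peaks over 11998 bases, 3 of them at its TSSs. The peak at chr2:163537457-163538480 was the highest of the 14 in the first-listed library (6.71) and the lowest in the second-listed one (3.33). The order of the libraries at that peak was opposite to that of most pairs. Cyp7a1, the rate-limiting enzyme of bile acid synthesis, had 1 promoter peak of 1251 bp, with 636 bp under the second-listed interval, and values of 4.10 and 5.04. Fgf21, a hormone of the fasting liver, had 3 narrow promoter-class peaks with 2.61, 2.73 and 2.24 in the first-listed library and 5.27, 5.27 and 3.24 in the second-listed one, the first pair sharing a partner. The third of these peaks lay outside the gene, within 1 kb of it, and its nearest TSS was that of Fut1 (0.835 kb). Actb (beta-actin) had 2 peaks beside its TSS, with 3.59 and 4.85 against 7.56 and 4.05.

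The highest-ranking promoter peaks were those at Hjurp, H2-Q6, Tgfbr1, Slc12a2, Itpk1, St3gal5, H2-Q7, Gnb1, Ccne2 and 1700017B05Rik. The Slc12a2 peak (a sodium-potassium-chloride cotransporter) had the same height in both libraries, 11.6 and 11.5, whereas the St3gal5 peak (a ganglioside synthase) had 4.98 and 14.8. H2-Q6 and H2-Q7 are near-identical class I histocompatibility genes. The highest distal peaks fell into 3 places. A peak lay on chromosome 11 nearest Sfi1, a pair on chromosome 17 nearest Scaf8, and 7 on chromosome 6 between Ezh2 and Pdia4, where 20 distal peaks lay within 201 kb with a median of 69.2 CpGs per kb. The 3 on chromosomes 11 and 17 lay within 4 Mb of the chromosome start. They were 0.043 to 1.335 kb from the TSS of a transcribed pseudogene. These 10 distal peaks had −log10 p values 2.98 to 5.59 times the median of peaks of the same fold enrichment (within 5%) in the first-listed library and 3.32 to 7.33 times in the second-listed one. The 10 promoter peaks had 1.00 to 2.83 and 1.00 to 3.88 times. At an equal fold, a larger −log10 p goes with more reads in both ChIP and control.

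Short motifs were counted on both strands in the 500 bp around each peak centre and in all 500-bp windows of the same class. The HNF4A motif (CAAAGTCCA) was found in 1.75% of distal peaks against 0.649% of distal windows, in 1.35% of intragenic peaks against 0.663%, and in 0.568% of promoter peaks against 0.775%. The ETS motif (CCGGAAGT) was found in 1.08% of distal peaks against 0.245% and in 3.33% of promoter peaks against 1.55%. The GC box (GGGCGG) was found in 51.2% of promoter peaks against 24.1%, and in 16.5% of distal peaks against 3.43%. The C/EBP motif (TTGCGCAA) was in 16 distal peaks (0.158% against 0.0350%) and the CTCF motif in 73 (0.722% against 0.0640%). The forkhead (FOXA) motif (TGTTTAC) differed less, 8.87% of distal peaks against 7.45%. The TATA box (TATAAAA) was rarer in peaks than in windows of each class, 5.40% against 10.7% at promoters. The windows were not matched to the peaks on base composition, and a match is a description and not a site.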

How the data were processed

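H3K4me2 ChIP-seq of whole liver was analysed for the control group of the series: 2 ChIP and 2 control libraries. According to the methods, the authors sequenced on a HiSeq 2000, aligned with Bowtie 2, called peaks with MACS against IgG ChIP-seq at p = 0.01 and joined replicates with BEDtools intersect. The submitters' processing notes name mm10 and bedtools 2.25.0. The deposited list gives, per library, interval, summit, fold enrichment over the control library (a linear ratio), and the deposited −log10 p and −log10 q values, with the overlap of each pair in bp as a count of bases. The highest listed p was 0.0480, above the stated threshold. The 2 deposited score columns were not used. Read depth is unknown from these values, so Wilson intervals cover counting error only.

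Peaks were classed by centre against GENCODE M21 protein-coding genes and TSSs (promoter: within 1 kb; 54361 TSSs of 21853 genes). Peaks per gene and marked bases were counted in the gene and 1 kb either side with numpy 2.4.6 and pandas 2.3.3 (Python 3.11.15). Interval functions were tested on simulated data. No test was run: there is 1 list and no comparison of groups. Named genes were the 10 with most marked bases, most peaks and largest marked share, those of the 10 highest-ranking promoter and distal peaks, members against the majority of their list, and 8 fixed examples. A promoter sequence of the rule is not reported here. The members and lists were chosen with earlier results of these data known.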

Additional observations from a re-analysis of the deposited data

How the results depend on the processing

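The class shares depended most on the peak and promoter definitions. With p at or below 1e-05 in both libraries, 64.8% of peaks were promoter, 22.2% intragenic and 13.1% distal, and with q at or below 0.05 in both the shares were 51.4%, 30.6% and 18%. Promoters of 500 bp either side gave 24.6%, 49.5% and 25.9%, and of 2 kb 43.9%, 34.4% and 21.7%. Any overlap of 1 bp gave 40.2%, 37.5% and 22.2%. A single TSS per gene gave 29.4% promoter and 47.6% intragenic, and the second-listed intervals 39.9% intragenic and 24.4% distal. Bases covered were 22.8 Mb with p at or below 1e-05. The correlation of the libraries was 0.55 for −log10 p in place of fold enrichment, 0.55 with 1 first-listed peak per partner, 0.30 for promoter and 0.34 for distal peaks alone. The cause of these shifts beyond the changed definitions was not tested.

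Genes with a promoter peak numbered 10360 to 13116 and genes with no peak 7222 to 10815 over all alternatives run. With p at or below 1e-05 the share of all genes marked was 47.4%, and 3 groups moved from above to below it: UDP-glucuronosyltransferases (36.4%), major urinary proteins (31.8%) and periportal genes (20%). Endothelial genes moved above the share of all genes when any peak in the gene counted (71.4% against 63.9%). No paired analysis was possible because the columns carry no replicate number and no groups were compared. Results could not be recomputed without either library, since each entry needs both.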
